A study of Mus musculus with 6 samples.

Results

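The genes described here encode the Myc, Max and Mxd network of transcription factors in mouse T cell acute lymphoblastic leukemia (T-ALL). The members were fixed by name as 10 genes, Myc, Mycn, Max, Mxd1, Mxi1, Mxd3, Mxd4, Mnt, Mga and Mlx. Each gene is represented by 1 probe set with 1 annotated symbol, so the rule of taking the brightest probe set per gene left no choice to make. All 10 were among the 19938 genes named on the arrays and among the 13956 of them bright enough to be tested, with a mean log2 intensity of at least 6.70.

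The study measured 6 Affymetrix arrays, 3 labelled Tamoxifen and 3 labelled Vehicle, with 1 array of each treatment from each of 3 independent leukemias, lines 14843, 14844 and 14846. Every leukemia arose from blood progenitors that carried a Zfx allele flanked by loxP sites (Zfx fl/y) and the tamoxifen-activated recombinase Cre-ER, and that received the intracellular part of Notch (Notch-IC) from a retrovirus. Leukemia cells grew in sublethally irradiated secondary recipient mice, whose own cells a GFP sort was used to remove. Recipients in the Tamoxifen group were given 5 mg a day by gavage for 3 days from day 10 after transplant, recipients in the Vehicle group were given vehicle, and GFP-positive cells were collected 48 h after the last dose. The labels call the first group ZFX null and the second ZFX flox. Both groups share Notch-IC, Cre-ER and the floxed allele, no arrays of Tamoxifen-treated cells without Cre-ER or without the floxed allele were analysed here, so drug, recombinase and any loss of Zfx cannot be told apart. The labels give neither strain nor age of the mice.

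Array medians lay between 202 and 208 intensity units. Arrays are compared below on the log2 of the intensity, and a difference is Tamoxifen minus Vehicle. The T cell markers Cd3e and Thy1 had log2 intensities of 13.11 to 13.25 and 13.36 to 13.40 in Tamoxifen arrays, against 13.18 to 13.27 and 13.35 to 13.49 in Vehicle arrays, and 14 of 16 T-ALL markers were tested, with 0 called. Of 36 markers of 6 other cell types 23 were tested and 0 were called, and no tested marker was at 0. Over all tested genes 6.23% were called by treatment, so a count of 0 in lists this short does not show that the groups match in cell content. The summed linear intensity of the macrophage markers was 1325 to 1674 in Tamoxifen arrays and 1273 to 1500 in Vehicle arrays. The neutrophil markers summed to 1345 to 3083 in Tamoxifen arrays and 1302 to 2289 in Vehicle arrays, and the NK cell markers to 1001 to 2181 in Tamoxifen arrays and 805 to 2592 in Vehicle arrays. The B cell markers summed to 580 to 653 in Tamoxifen arrays and 503 to 979 in Vehicle arrays. Stromal markers gave 3393 to 3563 in Tamoxifen arrays and 3148 to 3389 in Vehicle arrays, and erythroid markers 215 to 247 in Tamoxifen arrays and 211 to 226 in Vehicle arrays. Between lines 1 of the 14 tested T-ALL markers was called, Gata3, which averaged 11.74, 12.21 and 11.50 in lines 14843, 14844 and 14846. Of the 23 tested markers of other cell types 6 were called between lines, beside 3.11% of all tested genes. Of these, Klrb1c and Nkg7 were highest in line 14846, and Lyz2, Ngp, S100a8 and Col1a2 in line 14844. The other tested markers of the same lists did not all follow. Those of neutrophils were highest in line 14844 too, but Prf1, Col1a1 and Col3a1 were highest in line 14843. Cd68, C1qa, C1qb, C1qc, Pecam1 and Cdh5 were highest in line 14846. Whether the content of other cells differs between lines was not tested. The part of other cells in the results below was not tested. The Zfx probe set gave 10.94 ± 0.06 in Tamoxifen arrays and 10.87 ± 0.14 in Vehicle arrays (SD, n = 3 each). Where its probes lie relative to the loxP sites is not known here, so it does not check the labels. Ptpmt1, which has been reported as a gene controlled by Zfx, differed by -2.10, -1.96 and -2.61 log2 units in lines 14843, 14844 and 14846. It is named after its value was seen, and whether that report rests on these same arrays is not known here. Ptpmt1 therefore does not check the labels either.

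Max is a small basic helix-loop-helix leucine zipper protein that binds DNA only as a dimer, and most other proteins of the network reach DNA by pairing with it. Myc-Max dimers recruit histone acetyltransferases and drive growth, ribosome production and cell division, while Mxd-Max and Mnt-Max dimers bring Sin3 and histone deacetylases to the same sites. In T-ALL, Notch drives Myc directly through a distant enhancer, and Myc is one of the main effectors of Notch in this leukemia.

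Dimers of the network bind the E-box hexamer CACGTG, and some of these genes carry it near their own start sites. RefSeq promoter windows of 250 bases before to 50 after a start site (GRCm38.p6) were matched for 9 of the 10 genes, all but Myc, as 11 windows. The hexamer, which is its own reverse complement, was found in the windows of 4 genes, Mxd4, Mnt, Mlx and Max. Over all 32851 windows of the same length, 7.15% hold it. The stretches below are shown because they carry the network's own binding letters, written in capitals, with 30 bases on either side in the direction of the gene. They lie at chr5:34187894-34187959 (minus strand, Mxd4), chr11:74830771-74830836 (plus strand, Mnt), chr11:101087220-101087285 (plus strand, Mlx) and chr12:76962216-76962281 (minus strand, Max). The hexamer begins 219, 123, 40 and 3 bases before the start site in that order.
Mxd4: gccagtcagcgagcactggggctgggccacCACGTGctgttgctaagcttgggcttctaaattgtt
Mnt: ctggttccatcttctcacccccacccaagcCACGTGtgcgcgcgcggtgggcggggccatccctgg
Mlx: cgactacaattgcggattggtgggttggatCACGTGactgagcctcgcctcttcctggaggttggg
Max: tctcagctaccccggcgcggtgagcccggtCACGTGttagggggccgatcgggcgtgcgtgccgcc
AGGCCT, the core letters of the motif known for Zfx and also its own reverse complement, was in 0 of the 11 windows and in 10.3% of all windows. A match is a run of letters and says nothing of binding in these cells, and a missing match says only that the letters are not in this window.

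The first comparison asked whether any gene of the network differed between Tamoxifen and Vehicle arrays, with the leukemia line as a block. None of the 10 was called at an adjusted p of 0.05 by limma, and 1 of 10, Mxi1, had an unadjusted p under 0.05. Over all 13956 tested genes 6.23% were called at the adjusted threshold. The share with an unadjusted p under 0.05 was not taken, so the 1 of 10 has nothing to be set against. Fitted log2 differences ran from -0.24 to 0.07 with a median of -0.06, against a median of 0.03 over all tested genes, and adjusted p-values ran from 0.20 to 0.97. The 95% intervals, each taken for 1 gene without adjustment, reached from a Tamoxifen to Vehicle ratio of 0.726 at the lowest bound, for Mxi1, to 1.21 at the highest, for Mxd3. RNA was measured in bulk, so fewer cells of a kind and less RNA per cell cannot be told apart.

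Myc (chr15:61985341-61990361, GRCm38.p6) had log2 intensities of 12.49, 12.67 and 12.69 in Tamoxifen arrays of lines 14843, 14844 and 14846, against 12.86, 12.96 and 12.65 in the Vehicle arrays of the same lines. The Tamoxifen array was below its Vehicle partner in lines 14843 and 14844 and slightly above it in line 14846, and the groups overlapped. The fitted difference was -0.20 ± 0.09 (SE), a ratio of 0.869 with a 95% interval from 0.744 to 1.01, and limma's adjusted p was 0.24. Within lines the difference was -0.36, -0.28 and 0.04 in the order given. Without line 14846 the fit gave -0.32 with an adjusted p of 0.066, without line 14843 it gave -0.12 with an adjusted p of 0.55, and without line 14844 it gave -0.16 with an adjusted p of 0.57. Each line gave 1 array per treatment, so the lines' differences have no error of their own and were not tested against each other.

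Mycn, the paralog of Myc that is mostly used in neural and early embryonic cells, lay close to the limit for testing. Its log2 intensities were 7.43, 7.27 and 7.38 in Tamoxifen arrays, against 7.36, 7.39 and 7.32 in Vehicle arrays. The groups overlapped, with 2 lines higher and 1 lower, and the difference was 0.00 ± 0.06 (SE) with a 95% interval from -0.15 to 0.16.

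Max, the shared partner, was the gene with the smallest SE of the 10. It had log2 intensities of 11.60, 11.66 and 11.66 in Tamoxifen arrays, against 11.66, 11.71 and 11.69 in Vehicle arrays. Every Tamoxifen value lay below every Vehicle value, although the nearest of them are equal to 2 decimals. The difference was -0.05 ± 0.05 (SE), with a 95% interval from -0.17 to 0.08 and an adjusted p of 0.60. With arrays centred on their medians it was 0.013, so that no direction can be given. Centring shifted the difference of every gene alike, and the median over all tested genes rose from 0.0255 to 0.0847.

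**Figure D1:**
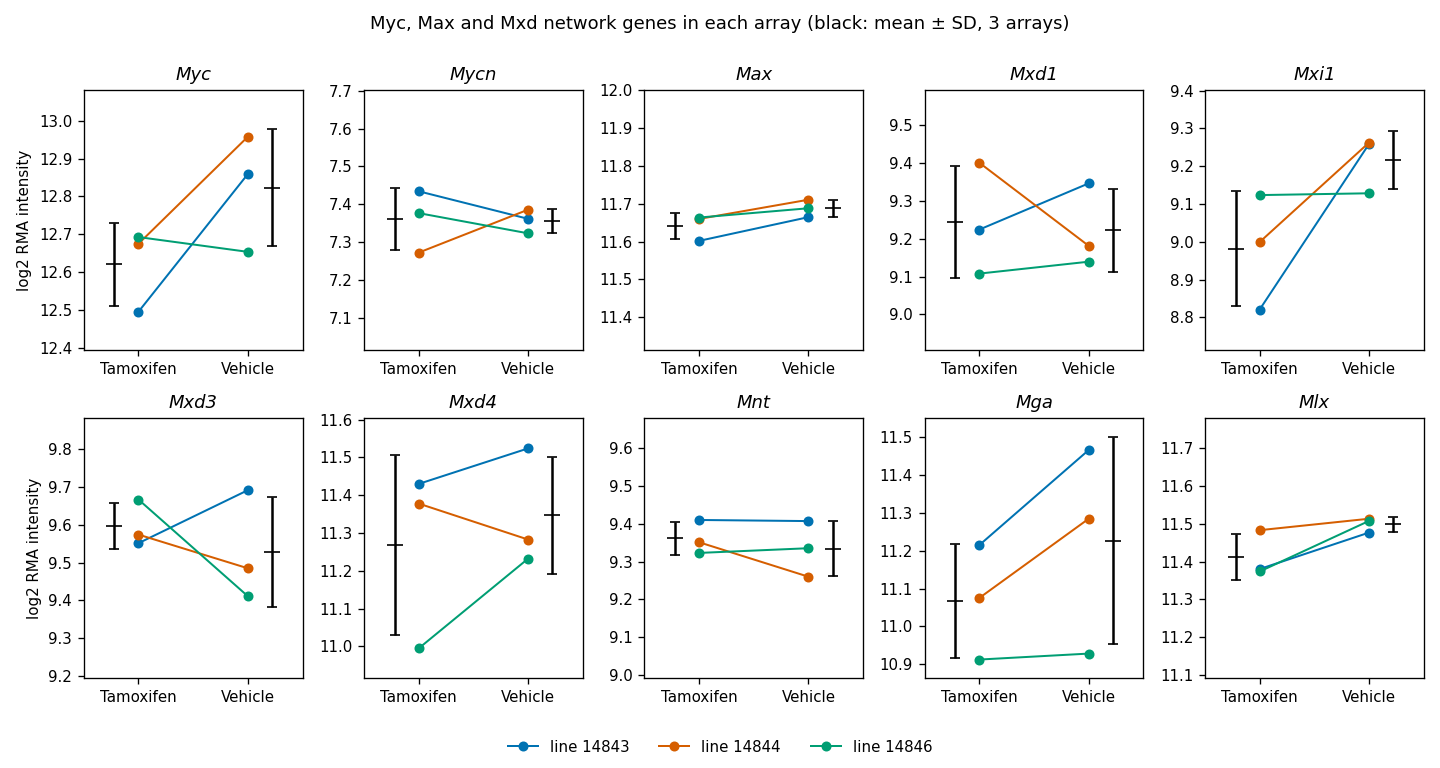
Log2 RMA intensity of each of the 10 network genes in the Tamoxifen arrays (left) and Vehicle arrays (right) of each panel, with arrays of 1 line joined by a line and black bars for the mean ± SD of 3 arrays. All panels span the same number of log2 units. Myc, Mxi1 and Mga have a lower Tamoxifen value in lines 14843 and 14844 and nearly level values in line 14846, while Mxd1, Mxd3 and Mxd4 cross over between lines.

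The 4 Mxd genes encode repressors that compete with Myc for Max and most of them are known to rise when cells leave the cycle. Mxi1 (chr19:53310128-53373293, GRCm38.p6) had log2 intensities of 8.82, 8.999 and 9.12 in Tamoxifen arrays, against 9.26, 9.26 and 9.13 in Vehicle arrays of lines 14843, 14844 and 14846. All 3 Tamoxifen values lay below all 3 Vehicle values, but line 14846 differed by only -0.01, against -0.44 and -0.26 in lines 14843 and 14844. The fitted difference was -0.24 ± 0.09 (SE), a ratio of 0.849 with a 95% interval from 0.726 to 0.994, and the adjusted p was 0.20. The fit gave -0.13 without line 14843 and -0.35 without line 14846, with adjusted p-values of 0.48 and 0.070. Mxi1 has RefSeq start sites with 3 promoter windows, and the probe set does not tell its isoforms apart here.

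The other 3 Mxd genes showed no shared direction among the lines. Mxd1 had log2 intensities of 9.22, 9.40 and 9.11 in Tamoxifen arrays, against 9.35, 9.18 and 9.14 in Vehicle arrays. It was higher in line 14844 and lower in the other two, and the difference was 0.02 ± 0.08 (SE). Mxd3, whose expression is known to peak in dividing cells unlike that of the other Mxd genes, had 9.55, 9.57 and 9.67 in Tamoxifen arrays, against 9.69, 9.48 and 9.41 in Vehicle arrays. The difference was -0.14 in line 14843 and 0.26 in line 14846, with a fitted difference of 0.07 ± 0.08 (SE). Mxd4 had 11.43, 11.38 and 10.99 in Tamoxifen arrays, against 11.52, 11.28 and 11.23 in Vehicle arrays. It was lower in lines 14843 and 14846 and higher in line 14844, with a fitted difference of -0.08 ± 0.08 (SE). Adjusted p-values of the 3 genes lay between 0.56 and 0.89.

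Mnt and Mga pair with Max outside the Mxd family. Mnt, a repressor made in most tissues that opposes Myc, had log2 intensities of 9.41, 9.35 and 9.32 in Tamoxifen arrays, against 9.41, 9.26 and 9.34 in Vehicle arrays. The groups overlapped and the difference was 0.03 ± 0.05 (SE), with a 95% interval from -0.10 to 0.16. Mga, a very large protein that joins a T-box to a Max-binding domain and holds a variant Polycomb complex on DNA, had 11.22, 11.08 and 10.91 in Tamoxifen arrays, against 11.47, 11.29 and 10.93 in Vehicle arrays. Each Tamoxifen array was below its Vehicle partner, with differences of -0.25, -0.21 and -0.02 in lines 14843, 14844 and 14846, yet the groups overlapped because the lines themselves lay apart. The fitted difference was -0.16 ± 0.07 (SE), a ratio of 0.896 with a 95% interval from 0.799 to 1.004, and the adjusted p was 0.22.

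Mlx resembles Max and pairs with the glucose-sensing Mondo proteins Mlxip (MondoA) and Mlxipl (ChREBP) as well as with Mxd1, Mxd4 and Mnt. It had log2 intensities of 11.38, 11.48 and 11.37 in Tamoxifen arrays, against 11.48, 11.51 and 11.51 in Vehicle arrays. It was lower in each line, with differences of -0.10, -0.03 and -0.13, but the groups overlapped by a narrow margin, and the difference was -0.09 ± 0.05 (SE) with an adjusted p of 0.36.

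Of the 10 genes, 4 were lower in the Tamoxifen array of every line, namely Max, Mxi1, Mga and Mlx, while 0 were higher in every line. Over all tested genes 20.2% were lower in every line. The share of all genes higher in every line was not taken, so the 0 has nothing to be set against. For 2 of the 10, Max and Mxi1, the Tamoxifen values lay wholly below the Vehicle values, and this held for 11.5% of tested genes. The number of members lower in the Tamoxifen array was 8, 6 and 7 of 10 in lines 14843, 14844 and 14846. Over all tested genes 45.5%, 43.4% and 44.6% were lower in the same order. The median difference over members was -0.11, -0.04 and -0.01, beside medians of 0.02 over all tested genes in each line.

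**Figure D2:**
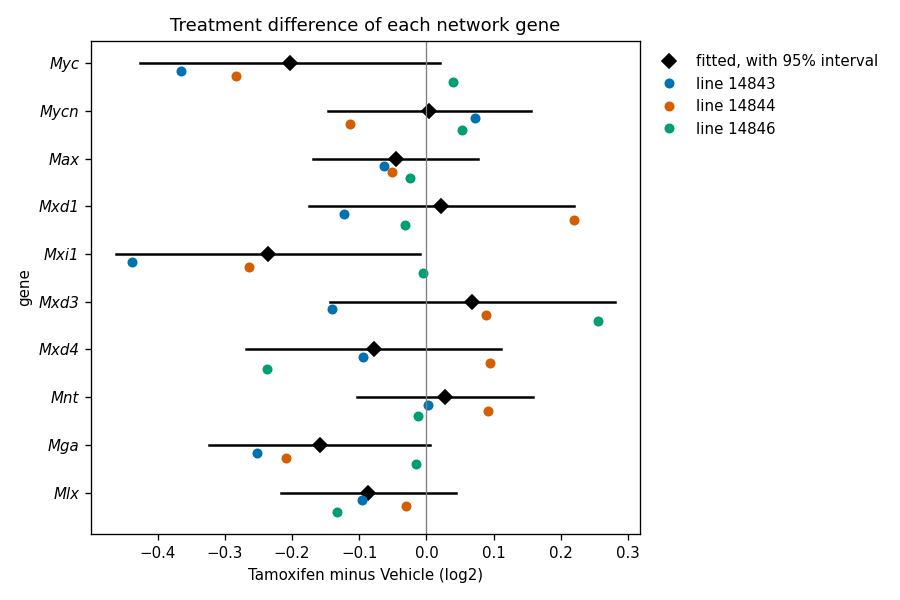
Tamoxifen minus Vehicle difference on the log2 scale for the 10 network genes, with the fitted value and its 95% interval in black and the difference of each line as a coloured point below it. The Mxi1 interval, from -0.46 to -0.01, is the only one that excludes 0 before adjustment, and the points of line 14846 for Myc, Mxi1 and Mga lie at 0.04, -0.01 and -0.02.

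Across the 6 arrays Myc and Mxi1 varied together, with a Pearson r of 0.914, given as a description because the arrays are paired by line and by treatment. Max followed Myc at 0.797, Mlx at 0.609 and Mga at 0.488, while Mnt ran the other way at -0.548. Mxd1, Mxd3, Mxd4 and Mycn lay between -0.10 and 0.10. Mxd4 followed Mga at 0.795.

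The 5 genes most like Myc were sought among 4086 tested genes with an SD of at least 0.15 over the arrays. Skp2, the F-box protein of a ubiquitin ligase that marks Myc and the inhibitor p27 for destruction, came first, with an r of 0.998 over 6 arrays. It was followed by Hsph1 at 0.986, a nucleotide exchange factor of Hsp70, by Cdan1 at 0.982, which is known for congenital dyserythropoietic anemia, by Ccdc15 at 0.979 and by Hspa4l at 0.977, another Hsp70 exchange factor. Leaving out any 1 line left the r of these 5 genes between 0.958 and 0.999. The genes were picked for a high r on these same arrays, so these values are no measure of stability.

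As in Myc, the difference of each of these 5 genes was most negative in line 14843 and smallest in size in line 14846. Their selection by likeness to Myc favours such a pattern. Skp2 had log2 intensities of 10.53, 10.83 and 10.83 in Tamoxifen arrays, against 11.13, 11.33 and 10.80 in Vehicle arrays of lines 14843, 14844 and 14846. The differences were -0.60, -0.50 and 0.03, so that Skp2 was lower in lines 14843 and 14844 and nearly level in line 14846. Hsph1 differed by -1.29, -1.03 and -0.05 in the same order and Hspa4l by -1.23, -0.66 and -0.02. None of the 5 was called over all 3 lines, with fitted differences from -0.79 to -0.18 and adjusted p-values from 0.11 to 0.29. Skp2 gave -0.23 without line 14843, -0.28 without line 14844 and -0.55 without line 14846, with adjusted p-values of 0.41, 0.48 and 0.021.

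**Figure D3:**
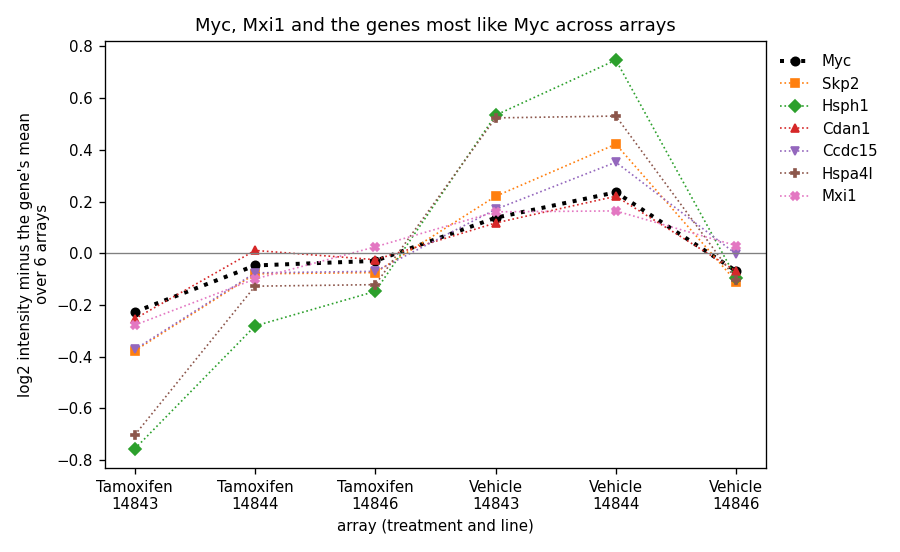
Log2 intensity of Myc, of Mxi1 and of the 5 genes most like Myc, each minus its own mean, in the 6 arrays named on the horizontal axis; dotted lines join the values of a gene and imply no order. The Vehicle arrays of lines 14843 and 14844 are high for all of them, and the Tamoxifen and Vehicle arrays of line 14846 differ little.

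The second comparison asked whether the network differed between the 3 leukemias, averaged over treatments. By limma's moderated F test 0 of 10 members were called, with adjusted p-values from 0.11 to 0.80, while 3.11% of tested genes were. Unadjusted, 2 members, Mga and Mxd4, had a p under 0.05. The share of all tested genes under that limit was not taken, so the 2 are not read as a difference. Mga averaged 11.34, 11.18 and 10.92 in lines 14843, 14844 and 14846 (n = 2 arrays each), with an adjusted p of 0.11. Mxd4 averaged 11.48, 11.33 and 11.11 in the same order, with an adjusted p of 0.20. Both were lowest in line 14846. The line averages of Myc were 12.68, 12.82 and 12.67, a span of 0.14, and those of Max spanned 0.05.

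Genes that act with the network were taken from 8 lists of 97 genes in all, of which 91 were tested, 5 had no named probe set here and 1 was too dim. Lists are described by counts. Of the 91 genes 4 fell, or 4.40%, and 0 rose. Over all tested genes 4.93% were called lower, as 688 of 870 calls, so the count says nothing particular of the lists. With arrays centred on their medians, which raised the median over all tested genes from 0.0255 to 0.0847, 562 of 974 calls over all genes were lower. The calls in the lists were then E2f6 and Usp28, lower, and Rrp9 and Hk2, higher. After quantile normalization was repeated, E2f6, Usp28 and Set were called lower and Rrp9 higher. The median difference of the 91 was 0.01. The 4 were E2f6 and Pcgf6, which bind Mga, and Usp28 and Set, which are linked to the stability of Myc.

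Mga anchors the Polycomb complex PRC1.6, in which E2f6 and Pcgf6 are the subunits that set it apart from other Polycomb complexes. E2f6, a repressor of the E2F family, had log2 intensities of 10.20, 10.49 and 10.46 in Tamoxifen arrays, against 10.55, 10.80 and 10.80 in Vehicle arrays. It fell in each line, with a difference of -0.34 ± 0.05 (SE), or 1.26-fold lower (adjusted p 0.024). Pcgf6, the Polycomb group ring finger of the complex, had 10.23, 10.31 and 10.46 in Tamoxifen arrays, against 10.51, 10.74 and 10.74 in Vehicle arrays. It fell in each line, with a difference of -0.33 ± 0.06 (SE), or 1.25-fold lower (adjusted p 0.036). In both genes all Tamoxifen values lay below all Vehicle values. Of the 9 subunits tested 2 fell, beside 4.93% of all tested genes, and the median difference was 0.02. The reader of histone methylation L3mbtl2 gave 0.16 ± 0.05, with an adjusted p of 0.16. Rybp, a subunit shared with other Polycomb complexes, differed between lines. It had 11.61, 11.50 and 11.20 in Tamoxifen arrays and 11.72, 11.57 and 11.22 in Vehicle arrays. Its adjusted p between lines was 0.045 by limma's moderated F test, and 0.085, 0.095 and 0.41 without lines 14843, 14844 and 14846. With the mean of its 2 probe sets it was 0.054, and with the filter at the 50th percentile 0.0501. The call was lost under 5 of 9 alternatives.

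Among 15 tested genes linked to the stability of Myc, 2 fell, beside 4.93% of all tested genes, and the median difference was 0.01. Usp28, a deubiquitinase known to protect Myc from the ubiquitin ligase Fbxw7, had log2 intensities of 8.75, 9.02 and 8.99 in Tamoxifen arrays, against 9.23, 9.37 and 9.32 in Vehicle arrays. All Tamoxifen values lay below all Vehicle values, and the difference was -0.39 ± 0.06 (SE), or 1.31-fold lower (adjusted p 0.023). Set, an inhibitor of the phosphatase PP2A that acts on Myc, had 7.66, 7.76 and 7.78 in Tamoxifen arrays, against 7.96, 8.05 and 8.07 in Vehicle arrays. Its difference was -0.29 ± 0.05 (SE), with an adjusted p of 0.033, and the mean with its other probe set gave -0.14 with an adjusted p of 0.19. That other probe set gave 0.01, but its mean log2 intensity of 6.35 lies under the limit for testing.

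The 4 calls depended on the fit. Without line as a block none of them passed, the smallest adjusted p being 0.074 and the largest 0.20, and 2.11% of all tested genes were called. With line 14843 left out 0 of the 91 genes passed, and 3.57% of all genes did. Without line 14844 there were also 0, but that fit called only 0.502% of all genes, so it says little about these. Without line 14846 there were 2, Usp28 and Skp2, beside 4.79% of all genes. The differences themselves stayed between -0.34 and -0.41 for Usp28, -0.32 and -0.35 for E2f6, -0.28 and -0.35 for Pcgf6 and at -0.29 for Set when a line was left out. With arrays centred on their medians, Set and Pcgf6 had adjusted p-values of 0.066 and 0.068, and after quantile normalization was repeated Pcgf6 had 0.052.

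The kinase gene Pim2, whose product is known to phosphorylate and stabilise Myc, set the leukemias apart rather than the treatments. It had log2 intensities of 9.10, 9.26 and 12.04 in Tamoxifen arrays of lines 14843, 14844 and 14846, against 9.11, 9.15 and 11.72 in Vehicle arrays. Line 14846 was high under both treatments. The difference between lines had an adjusted p of 7.8e-04, and of 0.54 once line 14846 was left out. The treatment difference was 0.14 ± 0.08 (SE), with an adjusted p of 0.33. Pim2 and Rybp are named as the only 2 of the 91 genes called between lines.

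The remaining lists had no gene called between treatments. Of 4 other partners, Mlxip gave -0.15 ± 0.05 (SE) and Mlxipl 0.12 ± 0.06, with adjusted p-values of 0.18 and 0.27. Of 12 tested coactivators of Myc, the helicase Ruvbl1 and the acetyltransferase Ep300 gave -0.17 ± 0.05 and -0.17 ± 0.07. Of 12 tested corepressors that Mxd proteins recruit, the scaffold Sin3b gave -0.32 ± 0.08, with an adjusted p of 0.085, and the deacetylase Hdac3 gave -0.20 ± 0.06. The medians of these 3 lists were 0.04, -0.0027 and -0.03.

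Of 30 classic Myc targets 0 were called, with a median difference of 0.0286, beside 0.0255 for all tested genes. The rRNA processing gene Rrp9 had log2 intensities of 10.16, 10.35 and 10.41 in Tamoxifen arrays, against 9.81, 10.11 and 10.25 in Vehicle arrays, and hexokinase gene Hk2 had 8.53, 8.52 and 8.50 in Tamoxifen arrays, against 8.28, 8.29 and 8.36 in Vehicle arrays. Both were higher in each line, at 0.25 ± 0.06 (SE) and 0.21 ± 0.05, with adjusted p-values of 0.072 and 0.087. With arrays centred on their medians both passed, at 0.31 and 0.27 with adjusted p-values of 0.036 and 0.045. That centring shifted every gene upward alike, to a median of 0.0847 over all tested genes. After quantile normalization was repeated Rrp9 passed at 0.30 with 0.048. Odc1, the ornithine decarboxylase of polyamine synthesis and a long-known Myc target, gave -0.20 ± 0.07 with an adjusted p of 0.15, and is named after its value was seen. Of the 30 targets, 9 were higher and 4 lower in every line. Among all tested genes 20.2% were lower in every line, and the share higher in every line was not taken. Within lines 14843, 14844 and 14846, 45.5%, 43.4% and 44.6% of all tested genes were lower, so the 9 are not read as a rise.

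Of the Mondo and Mlx targets, the thioredoxin-binding gene Txnip and Klf10 gave -0.14 ± 0.10 (SE) and -0.12 ± 0.09, and Arrdc4 was too dim to be tested. Among 7 tested regulators of Myc transcription in T-ALL, Notch1 gave -0.11 ± 0.05 and Runx1 0.11 ± 0.06, with adjusted p-values of 0.27 and 0.31. Among the T-ALL markers Rag2, which cuts antigen receptor genes, gave -0.75 ± 0.16 with an adjusted p of 0.057, and Ptcra, a Notch target that encodes the pre-T cell receptor chain, gave -0.27 ± 0.08 with an adjusted p of 0.12.

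**Figure D4:**
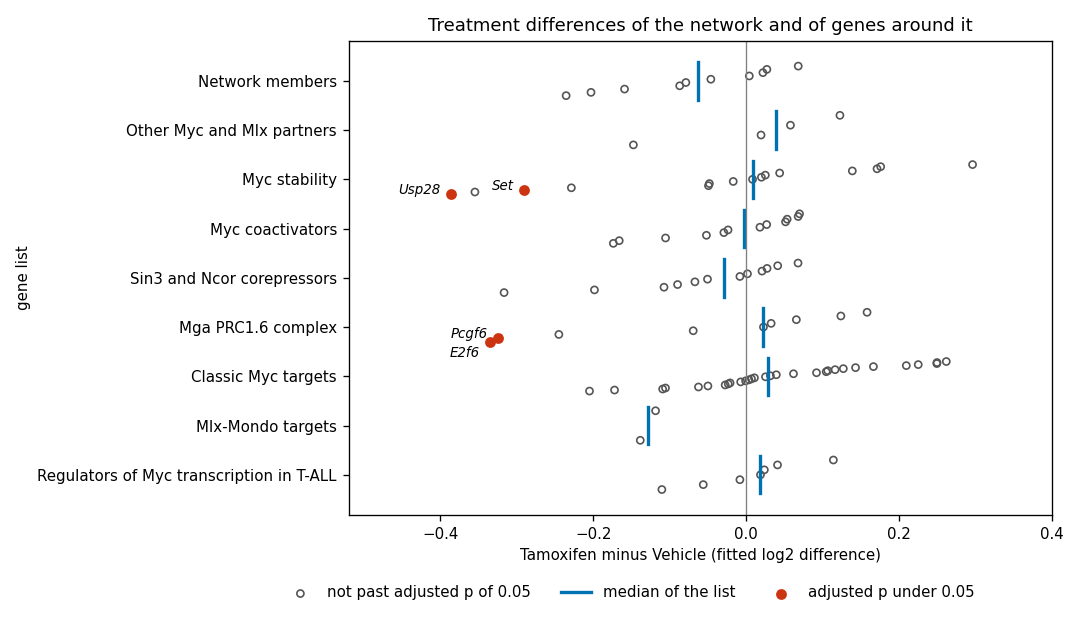
Fitted Tamoxifen minus Vehicle difference on the log2 scale of each tested gene of the network and of the 8 lists around it, 1 circle per gene, with red circles for adjusted p-values under 0.05 and a blue bar at the median of each list. Usp28, Set, E2f6 and Pcgf6 are the 4 red circles, and the medians lie between -0.13 and 0.04.

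**Figure D5:**
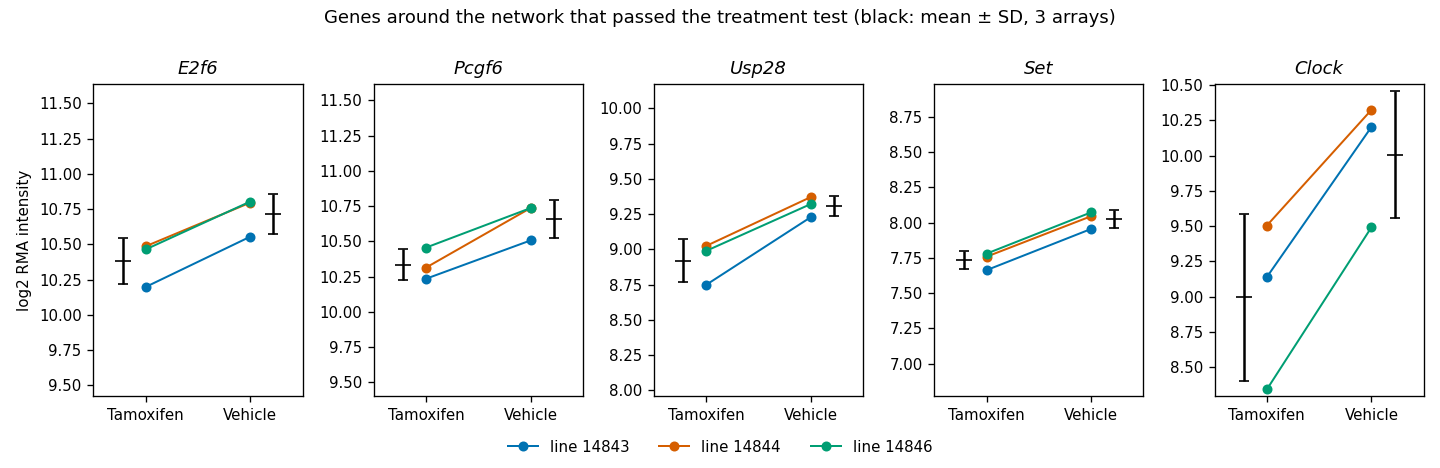
Log2 RMA intensity of E2f6, Pcgf6, Usp28, Set and Clock in Tamoxifen arrays (left) and Vehicle arrays (right), with arrays of 1 line joined and black bars for the mean ± SD of 3 arrays. In each panel the Tamoxifen value of every line lies below its Vehicle value, and Clock has the steepest lines.

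Other helix-loop-helix factors that bind E-boxes or like sites were read last, from a list of 17 genes drawn up after the network had been seen. Of these, 12 were tested and 1 was called, beside 6.23% of all tested genes, so the count says nothing particular of the list. Clock, the partner of Bmal1 in the circadian clock, had log2 intensities of 9.14, 9.50 and 8.34 in Tamoxifen arrays, against 10.20, 10.32 and 9.49 in Vehicle arrays of lines 14843, 14844 and 14846. It fell in each line, with a fitted difference of -1.01 ± 0.08 (SE), or 2.02-fold lower (adjusted p 0.0059). The groups overlapped by a narrow margin because line 14846 was low under both treatments, and without line as a block the adjusted p was 0.22. Arntl (named after its value was seen), which encodes Bmal1, gave -0.02 ± 0.16, and Usf2, another factor of the hexamer CACGTG, gave -0.23 ± 0.06 with an adjusted p of 0.082.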

How the data were processed

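The authors deposited 1 table of probe set intensities on a linear scale for the 6 arrays. The submitters' processing notes name RMA and Affymetrix Expression Console 1.1. The log2 of the deposited intensity was taken here. RMA equalises probe distributions, so differences in overall signal between arrays are removed. Of 35556 probe sets, 21789 had 1 gene symbol in the platform annotation and were used, updated through Entrez identifiers (RefSeq, GRCm38.p6). The brightest probe set per gene was kept, and genes at or above the 30th percentile of mean log2 intensity were tested. Limma 3.58.1 in R 4.3.3 (lmFit, eBayes) was fitted to all 13956 genes with line and treatment as terms. P-values are two-sided and Benjamini-Hochberg adjusted over these genes, and a gene past 0.05 is called. The fit has 2 residual and 3.47 prior degrees of freedom, and the number of arrays limits precision. The pairing comes from the series design. Deviations from group means correlated at 0.64, 0.68 and 0.68 within lines. The members and lists were chosen with earlier results of these data known. The text names all members and, per list, the called genes or otherwise the 2 with the smallest p, and the 5 tested genes that correlate best with Myc. Pim2, Rybp, L3mbtl2, Usf2, Clock, Cd3e, Thy1, Gata3 and the markers of other cell types compared between lines were named after their values were seen. The fit was tested on simulated data. The alternatives changed the replicate block, dim filter, array scaling, eBayes settings and probe set rule, or left out a line. Nothing in the labels says that arrays are other than 1 sample per line and treatment.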

Additional observations from a re-analysis of the deposited data

How the results depend on the processing

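No network gene was called by treatment under any of the 10 alternative settings, or between lines under the 9 that fit lines, and Myc ranged from -0.32 to -0.12. Of 99 values of single members under alternatives, 91 kept their sign and 8 turned it, all close to 0. With 1 line left out, Mycn ran from -0.0301 to 0.0632, Mxd1 from -0.0769 to 0.0942, Mxd3 from -0.0255 to 0.172, Mxd4 from -0.166 to 5.5e-04 and Mnt from -0.0048 to 0.0471. Mycn was -0.0313 after quantile normalization was repeated. Max was 0.0131 with arrays centred on their medians, where the median over all tested genes was 0.0847. Mycn was too dim for the filter at the 50th percentile. The causes were not tested. Without the replicate block Myc had the same difference, -0.20, with an adjusted p of 0.37. Calls over all genes numbered 870 with the block and 295 without it, and in the 8 lists around the network 4 with it and 0 without it. Leaving out 1 line gave 0 to 2 calls in these lists, in fits with fewer arrays that called 498, 70 and 669 of all genes without lines 14843, 14844 and 14846. The call of Clock held under 9 of 10 settings and was lost without the block. These alternatives for list genes and Clock were added after the data had been seen. The median SE of the members was 0.0707, which limits the differences that 3 arrays per group can show.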
